A study of Mus musculus with 9 samples.

Results

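Cathepsins are the proteases of the lysosome, and 10 of their genes (Ctsa, Ctsb, Ctsc, Ctsd, Ctsf, Ctsh, Ctsk, Ctsl, Ctss, and Ctsz) were followed in sorted lung fibroblasts of aged mice. The members were taken by gene name from a table of 43346 genes, and no measured value entered the choice. RNA-Seq was done on 4 aged sham and 5 aged bleo libraries. All mice carried the Col1a1-GFP transgene, in which a collagen I promoter drives green fluorescent protein, and the paper's methods describe them as males on an FVB background. The treatment text gives an age of 18 months and the age label 72 weeks for both groups. Aged sham mice received 1 intratracheal dose of saline and aged bleo mice 1 intratracheal dose of bleomycin, a drug that injures the lung epithelium and is followed by fibrosis. Lungs were taken after 30 days, digested, and sorted by flow cytometry, keeping GFP+ cells without CD45, CD31, or EpCAM, a gate meant to leave out leukocytes, endothelium, and epithelium. The labels do not say whether each library is 1 animal, so the p-values measure the spread between these libraries. The comparison asks how the transcripts of matrix-degrading and lysosomal proteases differ between injured and uninjured aged fibroblasts. The young libraries of the study were not analysed here.

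Cathepsins are made as inactive precursors, receive a mannose 6-phosphate tag in the Golgi, and are carried by mannose 6-phosphate receptors to acidic compartments, where the propeptide is cut off. Most of them, including cathepsins B, C, F, H, K, L, S, and Z, are cysteine proteases, while cathepsin D is an aspartic protease and cathepsin A a serine carboxypeptidase. In fibroblasts they degrade collagen taken up from the matrix, and cathepsins K, L, and S can also be secreted and cleave collagen or elastin outside the cell. Cathepsins S and C are best known from leukocytes, where the former trims the invariant chain of MHC class II and the latter activates granule serine proteases.

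The start-site windows of RefSeq (GRCm38.p6, 250 bases before to 50 bases after each start) held 9 windows of 8 of the 10 genes, and those of Ctsb and Ctsh were not in the table. They were searched on both strands for the E-box CACGTG, which is the core of the element bound by the lysosomal regulator TFEB, for its longer form TCACGTG and the palindromic CLEAR consensus of 10 letters, for the AP-1 motif TGANTCA, and for the motif GAGGAAGT of the myeloid factor PU.1. These motifs were chosen after the expression values had been seen. The first 3 motifs overlap one another. The sequences below carry the matches of the 2 cathepsins that rose most (PU.1 motif, read as its reverse complement) and of 4 genes with an E-box, which include 1 gene that rose, 1 that fell, and 2 that were not called. Capitals mark the motif. Ctsa and Ctsd each have a second CACGTG in their window, which is not shown.
Ctss, chr3:95526773-95526802, plus strand: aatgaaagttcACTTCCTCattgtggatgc
Ctsc, chr7:88277908-88277967, plus strand: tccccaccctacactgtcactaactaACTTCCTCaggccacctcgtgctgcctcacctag
Ctsd, chr7:142387908-142387937, minus strand: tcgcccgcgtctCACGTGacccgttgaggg
Ctsl, chr13:64370739-64370768, minus strand: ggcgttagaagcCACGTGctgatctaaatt
Ctsa, chr2:164833749-164833778, plus strand: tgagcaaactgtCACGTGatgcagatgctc
Ctsf, chr19:4855059-4855118, plus strand: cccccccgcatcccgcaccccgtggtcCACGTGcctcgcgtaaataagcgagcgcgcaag

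The PU.1 letters were present in the windows of Ctss and Ctsc, starting 2 and 151 bases before the RefSeq start, and in 3.20% of all 32851 windows. CACGTG was present in the windows of 4 cathepsin genes and in 7.15% of all windows. Ctsa and Ctsd held TCACGTG, which 3.77% of windows had. None of the cathepsin windows held the CLEAR consensus (0.33% of all windows) or TGANTCA (7.81% of all windows). A match is a description of these letters and not a binding site.

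Bleomycin injury was followed by higher transcript levels of 4 cathepsins and a lower level of 1. Ctss and Ctsc differed most, by 7.91-fold and 4.88-fold. Ctsd and Ctsk rose by 1.72-fold and 1.68-fold, and Ctsl fell to 0.645 of its level in aged sham. The other 5 members (Ctsa, Ctsb, Ctsf, Ctsh, and Ctsz) did not pass the thresholds. Counts were tested with edgeR's quasi-likelihood method, and a gene was called where the Benjamini-Hochberg adjusted p (FDR) over the 16877 genes tested was under 0.10 and the fold change over 1.5. All 10 members had an average count of at least 25 and were tested. Of all genes tested, 23.8% were called, 12.3% higher and 11.5% lower in aged bleo, so the 4 higher calls among 10 members stand beside 12.3% and the 1 lower call beside 11.5%. The median log2 fold change of the 10 members was 0.08, and that of all genes tested was 0.006. The study selected matrix remodeling genes for display on these samples, and its text does not say whether cathepsins are among them. The counts are therefore not taken as independent evidence of a direction of the family.

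**Figure D1:**
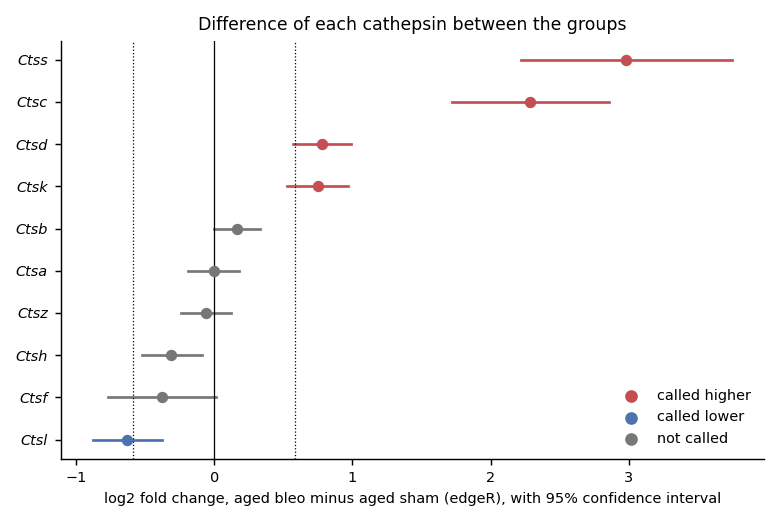
Log2 fold change (aged bleo minus aged sham, edgeR) of each of the 10 cathepsins, with dotted lines at a fold change of 1.5. Bars are approximate 95% confidence intervals from a normal quantile. Ctss at 2.98 and Ctsc at 2.29 stand far to the right of Ctsd and Ctsk, and Ctsl at -0.63 is the only member called lower.

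Library totals were 49921946 to 62370512 counts in aged sham and 53833507 to 68260600 counts in aged bleo. The least abundant member still had 584 counts in its lowest library, so counting error was small beside the spread between libraries. The sorted cells carried the transcripts of fibroblasts, with 9 fibroblast markers summing to between 24909.9 and 30667.5 CPM (counts scaled to library size with TMM factors) in aged sham and between 55065.6 and 72499.7 CPM in aged bleo. Of these 9 markers, Col1a1, Col1a2, Col3a1, and Pdgfrb rose, and Dcn and Tcf21 fell, beside 12.3% and 11.5% of all genes tested. Markers of cells that the gate excludes summed to less than the fibroblast markers but were not at 0. The leukocyte gene Ptprc was at 42.3 to 169 CPM in aged sham and at 30.6 to 183 CPM in aged bleo. The 7 neutrophil markers summed to between 150.1 and 924.7 CPM in aged sham and between 70.4 and 825.7 CPM in aged bleo. The 9 pan-leukocyte markers summed to between 133.8 and 507.6 CPM in aged sham and between 157.5 and 796.9 CPM in aged bleo, highest in aged sham 4 and aged bleo 4. Epithelial markers summed to between 15.4 and 98.7 CPM in aged sham and between 18.6 and 55.0 CPM in aged bleo, and endothelial markers to between 164 and 202 CPM in aged sham and between 26.8 and 71.4 CPM in aged bleo, most of it Tek on average. In bulk libraries of this kind, a different number of cells of a type and a different amount of RNA per cell cannot be told apart.

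Ctss (ENSMUSG00000038642, chromosome 3, 95526786 to 95556403, GRCm38, as are all positions below) encodes cathepsin S, an elastin-cleaving protease that works at neutral pH. Its level was 13.3, 17.8, 11.4, and 19.8 CPM in aged sham 1 to 4 and 65.6, 102, 76.0, 222, and 150 CPM in aged bleo 1 to 5. No aged bleo library was as low as any aged sham library, and the aged bleo libraries also differed widely among themselves. This was a log2 fold change of 2.98 (SE 0.39, edgeR FDR 0.000776), with means of 123 ± 64.2 CPM (SD, n = 5) and 15.6 ± 3.90 CPM (SD, n = 4). Aged bleo 4 and aged bleo 5 had the highest Ctss, and without both the log2 fold change was 2.38 (edgeR FDR 0.000414).

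Ctsc (ENSMUSG00000030560, chromosome 7, 88278085 to 88310888) encodes cathepsin C, the dipeptidyl peptidase that activates serine proteases in granules. It was at 50.1, 33.5, 24.3, and 29.9 CPM in aged sham 1 to 4 and at 134, 106, 153, 232, and 216 CPM in aged bleo 1 to 5. The groups did not overlap here either, and aged bleo 4 and aged bleo 5 were again the highest. The log2 fold change was 2.29 (SE 0.29, edgeR FDR 0.000665), with means of 168 ± 53.9 CPM (SD, n = 5) and 34.5 ± 11.1 CPM (SD, n = 4). Without aged bleo 4 and aged bleo 5 it was 1.92 (edgeR FDR 0.00121).

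**Figure D2:**
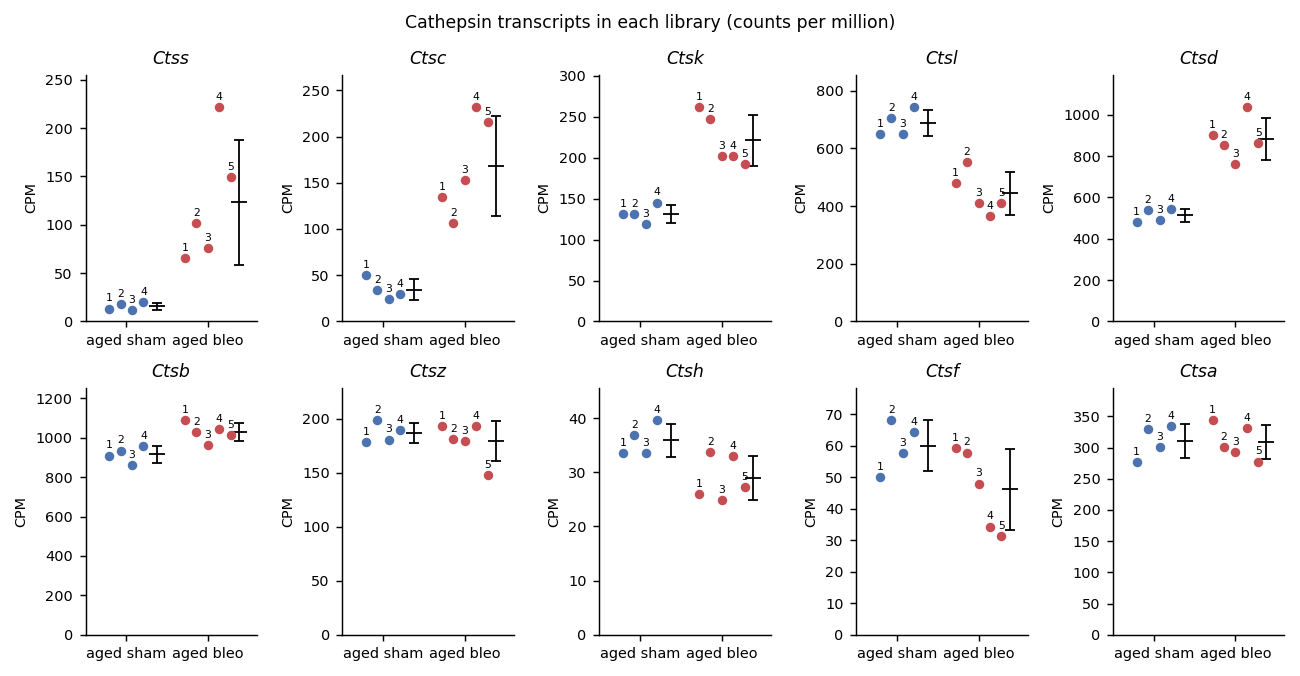
Level of each of the 10 cathepsins in CPM (each panel starts at 0) in the 4 aged sham (blue) and 5 aged bleo (red) libraries, with the replicate number over each point and the mean ± SD in black beside the points. The groups are apart for Ctss, Ctsc, Ctsk, Ctsd, and Ctsb (higher) and Ctsl (lower), and they overlap for the other 4.

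Some transcripts of macrophages, in which Ctss and Ctsc are abundant, were also higher in aged bleo. Of 14 macrophage markers, 6 rose (Lyz2, Chil3, Cd68, Mrc1, Emr1, and Fcgr1) and none fell, beside 12.3% and 11.5% of all genes tested. The 14 markers had a median log2 fold change of 1.33, beside 0.006 over all genes tested. Their summed level was between 203 and 354 CPM in aged sham and 558, 790.9, 665, 1809, and 1014 CPM in aged bleo 1 to 5. This order of the aged bleo libraries (4, 5, 2, 3, 1 from the highest) was also that of Ctss, while the order for Ctsc was 4, 5, 3, 1, 2. None of the 14 markers was at 0 in any aged bleo library. The mean log2 CPM of the list differed by 1.11 between the groups (two-sided exact permutation test, p = 0.0317, adjusted over 9 marker lists 0.143, where the smallest p that 4 against 5 libraries allow is 0.0159). For the 9 pan-leukocyte markers the difference was 0.19 (two-sided exact permutation test, p = 0.73, adjusted 0.821), and 1 of them was called higher. The part of macrophage RNA in the higher Ctss and Ctsc was not tested.

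The libraries differed in how far the markers departed from aged sham. In aged bleo 1, 3 of the 14 markers were above the highest aged sham library (Lyz2, Cd68, and Chil3) and 3 were below the lowest (Csf1r, C1qb, and C1qc), and in aged bleo 4, 13 of 14 were above. The share of all genes outside the aged sham range in a single library was not computed, so these counts only describe the markers. Lyz2 was at 373 CPM in aged bleo 1, against at most 162 CPM in aged sham, Chil3 at 69.6 CPM, against at most 36.6 CPM, and Cd68 at 22.0 CPM, against at most 15.4 CPM. C1qa was at 6.64 CPM in aged bleo 1, within the 6.53 to 17.7 CPM of aged sham, and the leukocyte gene Ptprc at 30.6 CPM, below the 42.3 to 169 CPM of aged sham. In that library Ctss was 65.6 CPM, against at most 19.8 CPM in aged sham, and Ctsc was 134 CPM, against at most 50.1 CPM. Emr1 is listed under its older symbol and is also known as Adgre1.

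**Figure D3:**
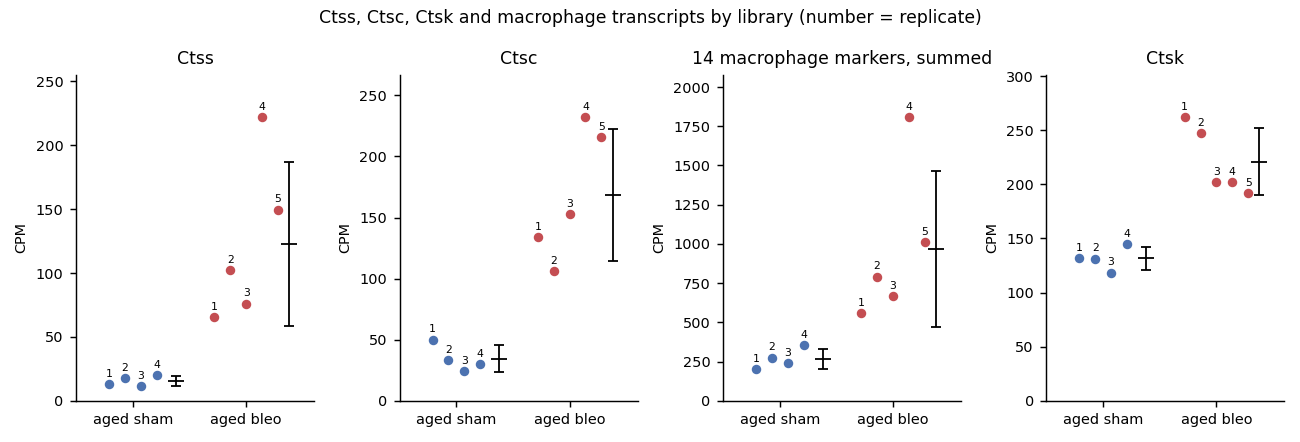
CPM of Ctss, Ctsc, the sum of 14 macrophage markers, and Ctsk in each library (numbers give the replicate, black the mean ± SD, axes start at 0). Aged bleo 4 and aged bleo 5 are highest for Ctss, Ctsc, and the marker sum, and Ctsk is highest in aged bleo 1 and aged bleo 2. The part of macrophage RNA in these cathepsin levels was not tested.

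Ctsk (ENSMUSG00000028111, chromosome 3, 95499286 to 95509362) lies next to Ctss and encodes cathepsin K, the main collagen-degrading protease of osteoclasts, which fibroblasts also make. It was at 131, 131, 118, and 145 CPM in aged sham 1 to 4 and at 262, 247, 202, 202, and 192 CPM in aged bleo 1 to 5. The groups were apart. On the log2 scale Ctsk rose by 0.75 (SE 0.11, edgeR FDR 0.00166). Without aged bleo 4 and aged bleo 5 the log2 fold change was 0.84 (edgeR FDR 0.00128). The libraries with the most macrophage transcripts were not those with the most Ctsk. Whether macrophage RNA contributed to the higher Ctsk was not tested.

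Ctsd (ENSMUSG00000007891, chromosome 7, 142371148 to 142388038) encodes cathepsin D, the abundant aspartic protease of the lysosome. It was at 481, 540.3, 490.5, and 543 CPM in aged sham 1 to 4 and at 901, 852, 762, 1039, and 863 CPM in aged bleo 1 to 5. The groups were well apart and the spread within each was small. Ctsd rose by 0.78 on the log2 scale (SE 0.11, edgeR FDR 0.000994), and it was 0.70 (edgeR FDR 0.00114) without aged bleo 4 and aged bleo 5. The annotation places 808 exonic bases of Ctsd within Gm49369, a gene on the same strand that has no row in the table.

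Ctsl (ENSMUSG00000021477, chromosome 13, 64363214 to 64370306) encodes cathepsin L, a broad endopeptidase of the lysosome and, per length, the most abundant cathepsin transcript of uninjured cells. It was at 649, 705, 650.4, and 744 CPM in aged sham 1 to 4 and at 480.0, 552, 409, 365, and 411 CPM in aged bleo 1 to 5. Each aged bleo library was below each aged sham library. The log2 fold change was -0.63 (SE 0.13, edgeR FDR 0.00587), only just past a fold change of 1.5. Without aged bleo 4, the lowest library, it was -0.58 (edgeR FDR 0.00733), and without both aged bleo 4 and aged bleo 5 -0.52 (edgeR FDR 0.0112), under that fold in both cases. Exons of Ctsl share bases with Gm47123 on the opposite and Gm49230 on the same strand, neither of which has a row in the table.

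Among the members that were not called, Ctsb (ENSMUSG00000021939, chromosome 14, 63122462 to 63145919) had the highest CPM. It encodes cathepsin B, which trims peptides from their carboxyl end as well as cutting within them. The levels were 909, 936, 861, and 958 CPM in aged sham 1 to 4 and 1090.2, 1030.0, 963, 1044, and 1015 CPM in aged bleo 1 to 5. The groups did not overlap, yet the difference was small (log2 fold change 0.17, SE 0.08, edgeR p 0.0761, FDR 0.149). The approximate 95% confidence interval, 0.00 to 0.33, is narrower than this test implies. Together with the 5 called members, 5 of the 10 genes were thus higher in every aged bleo library and 1 was lower, where 16.1% of all genes tested were above and 16.1% below in this way.

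Ctsf (ENSMUSG00000083282, chromosome 19, 4855129 to 4860912), encoding the cysteine protease cathepsin F, was uneven among injured lungs. It was at 49.96, 68.2, 57.7, and 64.4 CPM in aged sham 1 to 4 and at 59.3, 57.8, 48.0, 34.3, and 31.4 CPM in aged bleo 1 to 5. Aged bleo 1 and aged bleo 2 lay within the aged sham range, and aged bleo 4 and aged bleo 5 lay well below it. The log2 fold change of -0.38 (SE 0.20, edgeR FDR 0.170, 95% confidence interval -0.77 to 0.01) did not pass the thresholds, and without aged bleo 4 and aged bleo 5 it was -0.13 (edgeR FDR 0.446).

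Ctsh (ENSMUSG00000032359, chromosome 9, 90054152 to 90076089) encodes cathepsin H, an aminopeptidase that type II alveolar cells use to process surfactant protein. It ranged from 33.5 to 39.6 CPM in aged sham and was 26.0, 33.7, 24.8, 33.0, and 27.3 CPM in aged bleo 1 to 5. Only aged bleo 2 reached the aged sham range. The log2 fold change of -0.31 (SE 0.11) had an edgeR FDR of 0.0538 but a fold change under 1.5.

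Ctsz and Ctsa had the smallest differences of the family. Ctsz (ENSMUSG00000016256, chromosome 2, 174427493 to 174439039) encodes cathepsin Z, a carboxypeptidase, and had a range of 178 to 199 CPM in aged sham and 148 to 193 CPM in aged bleo (log2 fold change -0.06, SE 0.09, edgeR FDR 0.626, 95% confidence interval -0.24 to 0.12). Ctsa (ENSMUSG00000017760, chromosome 2, 164832873 to 164841032) encodes cathepsin A, which protects β-galactosidase and neuraminidase in the lysosome. Aged sham libraries held 277 to 334 CPM of it and aged bleo libraries 277 to 344 CPM (log2 fold change 0.00, edgeR FDR 0.978, 95% confidence interval -0.19 to 0.18). These intervals leave no room for a fold change of 1.5, and the sign of both values turned in some alternatives. Exons of Ctsa overlap those of Pltp by 495 bases and of Neurl2 by 324 bases on the opposite strand, and Ctsb overlaps Fdft1 by 774 bases. The strand setting of the counting is not given in the sources used here, so reads from these stretches may not be assigned to the right gene.

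Aged bleo 4 shares with all aged sham libraries a library name that ends in 4, and the names of the other aged bleo libraries end in 5 or 6. What the number stands for is not stated. Within the names that end in 4, which leaves aged bleo 4 as the only injured library, the log2 fold changes were 3.85 for Ctss, 2.77 for Ctsc, 1.03 for Ctsd, 0.63 for Ctsk, and -0.90 for Ctsl, all past the thresholds in edgeR. Ctsf was then called lower as well, at -0.79. The lone aged bleo library is assumed there to vary like the aged sham libraries.

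Levels of different genes were compared on the FPKM scale, which the authors scaled to gene length. The lengths given are 4499 bases for Ctsh, 4715 for Ctsa, 4739 for Ctsb, and 5801 for Ctsc, against 1358 for Ctss. Those of Ctsh and Ctsa equal all annotated exonic bases over 11 and 16 transcripts. FPKM is too low where the transcripts present are shorter than that, so the order and shares below depend on these lengths. In aged sham, Ctsl was the most abundant cathepsin at 146 ± 8.55 FPKM (SD, n = 4), above the range of every other member. Ctsd at 85.5 and Ctsb at 81.0 FPKM followed with overlapping ranges, and then Ctsz at 54.3, Ctsk at 37.2, Ctsa at 27.6, and Ctsf at 12.8 FPKM, with no overlap between neighbours. Ctss at 4.80, Ctsh at 3.34, and Ctsc at 2.49 FPKM were the least abundant, with overlap of Ctss and Ctsh and of Ctsh and Ctsc.

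In aged bleo, Ctsd took the first place at 151 ± 21.8 FPKM (SD, n = 5), above the range of Ctsl at 96.5 ± 14.4 FPKM. The ranges of Ctsl and Ctsb (93.4 FPKM) overlapped. The mean levels then fell from Ctsk (64.1) over Ctsz (53.4) and Ctss (39.4) to Ctsa (28.3 FPKM), and each of these neighbours overlapped with the next. Ctsc at 12.6 and Ctsf at 10.0 FPKM overlapped as well, and Ctsh at 2.77 FPKM was the least abundant.

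The sum of all 10 members was 455 ± 25.2 FPKM (SD, n = 4) in aged sham and 552 ± 53.0 FPKM (SD, n = 5) in aged bleo. The groups overlapped at their edges, with 479.8 FPKM in aged sham 2 and 478.6 FPKM in aged bleo 3. On the CPM scale, which does not divide by length, the sums were 2728.3 to 3067.3 in aged sham and 3109.1 to 3695.1 in aged bleo, just without overlap. The make-up of the sum changed more than its size. Ctsl made up 32.1% ± 0.415 of it in aged sham and 17.6% ± 2.83 in aged bleo, Ctsd 18.8% ± 0.279 and 27.3% ± 1.61, Ctsk 8.17% ± 0.400 and 11.7% ± 1.45, and Ctss 1.05% ± 0.202 and 6.99% ± 3.33 (mean ± SD, n = 4 and 5). The share of Ctsb was 17.8% and 17.0%. Shares of the counts, in which longer transcripts weigh more, had other sizes, with Ctsl at 23.8% and 13.0%, Ctsd at 17.8% and 25.7%, Ctsk at 4.55% and 6.45%, Ctss at 0.534% and 3.55%, and Ctsb at 31.7% and 30.0%. The ratio of Ctsd to Ctsl in FPKM was between 0.571 and 0.60 in the aged sham libraries and 1.47, 1.21, 1.46, 2.23, and 1.64 in aged bleo 1 to 5. It was thus below 1 in every aged sham library, above 1 in every aged bleo library, and nearly constant among the former.

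**Figure D4:**
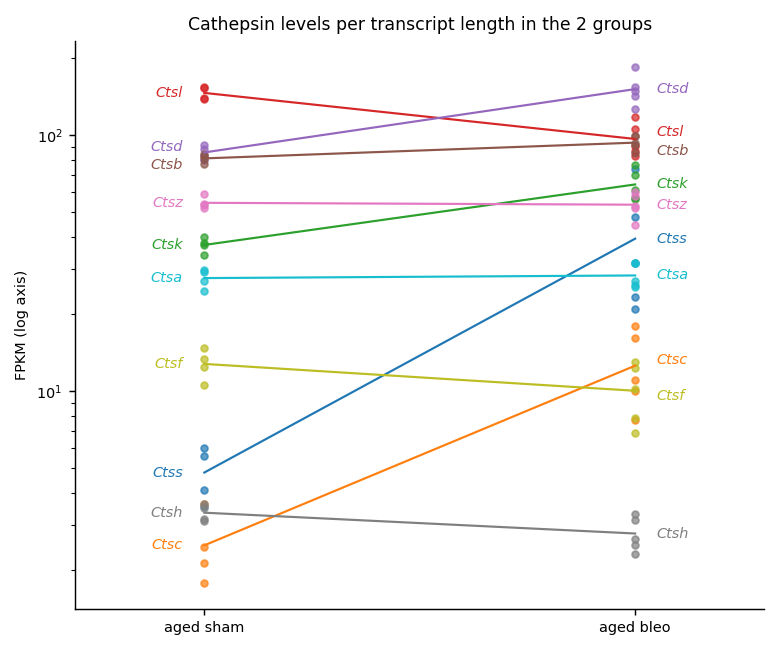
FPKM of the 10 cathepsins on a log axis, with a point for each of 4 aged sham and 5 aged bleo libraries and a line between the group means. Ctsl and Ctsd change places, Ctss climbs from 4.80 to 39.4 FPKM past Ctsf and Ctsa, and Ctsc climbs from 2.49 to 12.6 FPKM past Ctsh and Ctsf.

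The members did not all vary together within groups. Across the 9 libraries, after taking out the group means of log2 CPM, the correlation between 2 members ranged from -0.81 to 0.81. The lowest was between Ctsc and Ctsf, and the highest between Ctsk and Ctsl and likewise Ctsa and Ctsz. It was 0.55 between Ctss and Ctsc and 0.79 between Ctsf and Ctsl. Other high pairs were Ctsf and Ctsk (0.78), Ctsb and Ctsk (0.73), Ctsd and Ctss (0.73), and Ctsa and Ctsb (0.70). Ctsc was also low with Ctsl (-0.73) and Ctsk (-0.48), and Ctss with Ctsf (-0.59). Among 10004 genes with a mean of at least 10 CPM, the gene most like Ctss in this respect was Mrc1, a macrophage mannose receptor (r = 0.99), followed by Ube2b (0.97) and Rtel1 (0.96). For Ctsc they were Stmn1, Arhgap31, and Parp9 (r = 0.96 to 0.97), for Ctsd Tpt1, Arpc5l, and Cln3 (0.95 to 0.98), and for Ctsl Rbm43, Ppt1, and Terf2ip (0.97 to 0.98). Ppt1 encodes a lysosomal thioesterase and Cln3 a lysosomal membrane protein. For Ctsk they were Tmem106c, Cog2, and Calml4 (0.91 to 0.95). The gene most like Ctsf was Cst3 (0.99), which encodes the cathepsin inhibitor cystatin C, that most like Ctsz was Tfeb (0.96), and those most like Ctsa, Ctsb, and Ctsh were B3gnt1 (0.96), Pigp (0.90), and Gngt2 (0.90). The points share their libraries, depth, and leukocyte content, and with 9 points and 10004 genes compared, values of this size are a description of these libraries.

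Around the cathepsins, 108 genes of the lysosomal pathway were looked up in 7 lists. Of the 93 that were tested, 8 rose and 4 fell, beside 12.3% and 11.5% of all genes. The list of cathepsin activation, partners, and sorting held 3 of the 8. Of its 12 genes, not all of which act on cathepsins, Lgmn, Scarb2, and Sort1 rose and none fell (median log2 fold change 0.01). Lgmn, which encodes legumain, the asparaginyl endopeptidase that cleaves several cathepsins into their mature chains, was at 119, 132, 113, and 122 CPM in aged sham 1 to 4 and at 294, 222, 252, 291, and 298 CPM in aged bleo 1 to 5. The groups did not overlap (log2 fold change 1.16, SE 0.10, edgeR FDR 0.000111). Scarb2, the carrier of β-glucocerebrosidase to the lysosome, rose by 0.83 (SE 0.07, edgeR FDR 9.62e-05) on the log2 scale.

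The genes of the mannose 6-phosphate route named here did not pass the thresholds. The log2 fold changes were 0.28 for Igf2r and 0.02 for M6pr, which encode its receptors, and 0.18 for Gnptab, which encodes a subunit of the enzyme that makes the tag (SE 0.12, 0.06, and 0.14, edgeR FDR 0.105, 0.805, and 0.334). Gnptg, which encodes another subunit of that enzyme, was lower in all aged bleo libraries (19.2 to 34.0 CPM) than in any aged sham library (36.4 to 39.7 CPM), with a log2 fold change of -0.53 (SE 0.17, edgeR FDR 0.0343) and a fold change under 1.5. Neu1 and Glb1, the partners of cathepsin A in the lysosome, were at -0.07 and 0.01 (SE 0.12 and 0.08, edgeR FDR 0.707 and 0.956).

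Of 10 genes for cystatins and other cathepsin inhibitors, 5 were tested and none was called. edgeR gave Cstb, the cytoplasmic cystatin B, a log2 fold change of 0.56 (SE 0.15, FDR 0.0206), and its 5 aged bleo libraries (38.6 to 67.6 CPM) were above its 4 aged sham libraries (30.6 to 35.1 CPM), but the fold change was under 1.5. Cst3 was the most abundant inhibitor, at 945.5, 1419, 1153, and 1156 CPM in aged sham 1 to 4 and at 1356, 1342, 1041, 661, and 625 CPM in aged bleo 1 to 5. Like Ctsf, it was low in aged bleo 4 and aged bleo 5 and in the aged sham range in aged bleo 1 and aged bleo 2 (log2 fold change -0.22, SE 0.26, edgeR FDR 0.544). Cst7, the leukocyte inhibitor of cathepsin C and legumain, reached at most 0.0605 CPM in aged sham and at most 0.969 CPM in aged bleo, and was too low to be tested. Of 13 further cathepsin genes, 3 were tested and none was called, although all aged bleo libraries had less Ctso than any aged sham library (log2 fold change -0.56, SE 0.11, edgeR FDR 0.00579) with a fold change under 1.5. The count was 0 in all 9 libraries for 7 of them, which allows up to 0.0409 to 0.0605 CPM.

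**Figure D5:**
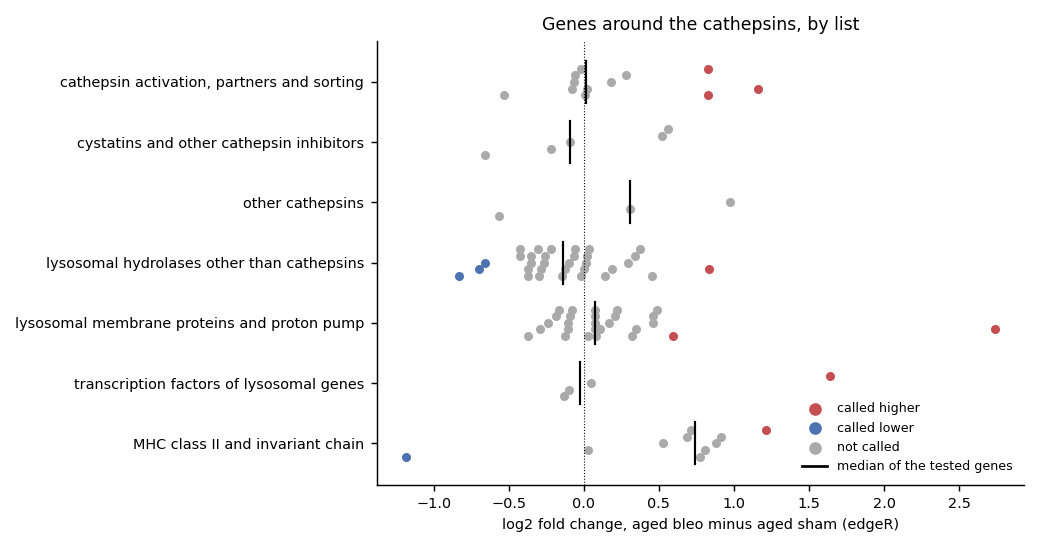
Log2 fold change (aged bleo minus aged sham, edgeR) of every tested gene of 7 lists around the cathepsins, red where called higher, blue where called lower, and grey where not called, with the list's median as a black bar. The medians of 5 lists lie within 0.14 of 0, that of the MHC class II list is 0.74, and that of the further cathepsins, with 3 genes tested, is 0.31.

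Other lysosomal genes showed no common direction. Of 32 hydrolases other than cathepsins, 1 rose and 3 fell (median log2 fold change -0.14). The riser was Acp5, the tartrate-resistant acid phosphatase of osteoclasts and macrophages, at 0.83 (SE 0.09, edgeR FDR 0.000263). Among the genes that fell were Gm2a, which encodes a lysosomal activator protein for ganglioside breakdown, by 0.83 on the log2 scale (SE 0.15, edgeR FDR 0.00408), and Idua. Of 27 lysosomal membrane and proton pump genes, 2 rose and none fell (median 0.07). Atp6v0d2, a pump subunit found in osteoclasts and macrophages, was at 2.20 to 4.50 CPM in aged sham and at 17.1 to 31.0 CPM in aged bleo (log2 fold change 2.74, SE 0.26, edgeR FDR 0.000147). Cd63 rose by 0.60 (SE 0.16, edgeR FDR 0.0177) and by 0.47 without aged bleo 4, 0.55 without aged bleo 5, 0.58 without aged sham 4, and 0.36 without aged bleo 4 and aged bleo 5, each under a fold change of 1.5.

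Among transcription factors of the family that drives lysosomal genes, Tfeb, Tfe3, and Mitf had log2 fold changes of -0.13, -0.10, and 0.05 (SE 0.16, 0.07, and 0.14, edgeR FDR 0.547, 0.295, and 0.818). The fourth, Tfec, which is expressed in macrophages, rose from 0.596 to 1.86 CPM (log2 fold change 1.64, SE 0.33, edgeR FDR 0.00588). Of 10 genes of MHC class II and the invariant chain, the presentation pathway that cathepsin S serves, H2-DMb1 rose and H2-Ob fell, with a median log2 fold change of 0.74 beside 0.006 over all genes tested. Cd74, which encodes the invariant chain, had a log2 fold change of 0.91 with a wide error (SE 0.50, edgeR FDR 0.184), and 0.35 without aged bleo 4 (edgeR FDR 0.461). H2-DMb1 rose by 1.21 (SE 0.41, edgeR FDR 0.0468). Its log2 fold change was 0.75 without aged bleo 4 (edgeR FDR 0.0561), and the call was lost without aged sham 2 (1.19, edgeR FDR 0.104), without aged sham 3 (1.10, edgeR FDR 0.121), and without aged bleo 4 and aged bleo 5 (0.57, edgeR FDR 0.124). H2-Ob, a class II chain of B cells, fell by 1.18 on the log2 scale (SE 0.29, edgeR FDR 0.0130), and 4 of 5 B cell markers fell with it.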

How the data were processed

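RNA-Seq libraries of 4 aged sham and 5 aged bleo samples were grouped by their labels, and all 9 were used. The authors deposited 1 table with raw read counts per gene, which are whole numbers, and FPKM values per gene, which the authors scaled to gene length by a method not given in the sources used here. The submitters' processing notes name bcl2fastq, STAR 2.5.2b, Subread, featureCounts, and mm10 (GRCm38). The annotation release and the strand setting are not given there. Of 42462 gene identifiers shared with GENCODE M21, 78.8% had the same position. Libraries were poly-A selected, and the counts cover no molecular identifiers, so limits from counts cover counting error only. A count of 0 allows up to 3 counts.

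Genes whose counts averaged 25 or more were tested with edgeR 4.0.16 (glmQLFit and glmQLFTest, TMM factors, no covariate) in R 4.3.3, following the thresholds of the study (FDR under 0.10, fold change over 1.5). The study's own test was a moderated one. Standard errors were derived from the fold change and its test, and log2 CPM used a prior count of 2. Named genes are the 10 members, in each pathway list the genes with the 2 largest called changes in each direction at a mean of at least 1 CPM, 13 pathway genes chosen for their role, the 3 genes most correlated with each member within groups, and marker genes as part of their lists. Genes named outside this rule (Sort1, Idua, Ctso, Gnptg, H2-Ob) and the marker genes whose levels are printed were chosen after their values were seen. One gene that the rule names is not reported here. The members and lists were chosen with earlier results of these data known. A marker list's level is its mean log2 CPM, tested by a two-sided exact permutation test over samples (scipy 1.17.1). Start-site windows came from RefSeq (GRCm38.p6), and gene overlaps from GENCODE M21.

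The alternatives were DESeq2 1.42.0, limma 3.58.1 on log2 CPM and on log2(FPKM + 0.1) and log2(FPKM + 1), RLE factors, no normalization beyond library size, no count filter, a minimum of 10 counts per library, robust dispersions, an FDR under 0.05 with a fold change over 2, each library left out, replicate numbers as a block, and libraries whose names end in 4. Leaving out aged bleo 4 and aged bleo 5 (highest macrophage markers), or aged sham 4 and aged bleo 4 (highest pan-leukocyte markers), was chosen after seeing the data. The tests of edgeR, DESeq2, and limma on log2 CPM were tried on simulated counts first.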

Additional observations from a re-analysis of the deposited data

Results flagged for a closer look

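Of 82 groups of values examined (each member, each named pathway gene, each marker list, and the summed FPKM of the cathepsins, in each treatment), 6 had 1 library far from the others, and chance gives such a gap in about 1 of 20 groups. No cathepsin was among them. Aged sham 2 had 308.3 CPM of Cd63, where the next highest aged sham library had 286.8 CPM. Aged bleo 4 stood apart with a mean log2 CPM of 6.204 over the pan-leukocyte markers (next highest 4.379) and of 5.339 over the neutrophil markers (next highest 2.512). The endothelial markers were low in aged sham 2, at 1.523 (next lowest 1.919), and in aged bleo 5, at 0.8817 (next lowest 1.513). The epithelial markers were low in aged bleo 1, at 0.7681 (next lowest 1.567).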

How the results depend on the processing

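Ctss, Ctsc, Ctsd, and Ctsk were called higher in each of 23 alternatives, except that an FDR under 0.05 with a fold change over 2 left 2 cathepsins called higher (Ctss and Ctsc) and 0 lower. Leaving out each library in turn, the log2 fold change ranged from 2.65 to 3.14 for Ctss, 2.13 to 2.52 for Ctsc, 0.71 to 0.83 for Ctsd, 0.68 to 0.80 for Ctsk, and -0.72 to -0.58 for Ctsl, and the number of cathepsins called lower from 0 (without aged bleo 4) to 1. It was 2 in the libraries whose names end in 4 (with Ctsf), 0 without aged bleo 4 and aged bleo 5, and 0 without aged sham 4 and aged bleo 4 (Ctsl at -0.55). Of the pathway genes, 7 to 13 were called higher with single libraries left out (13 without aged bleo 1), 4 higher and 1 lower under the stricter thresholds, 22 higher and 14 lower in the libraries whose names end in 4, and 2 lower on log2(FPKM + 1). Of all genes, 4022 were called, 1785 on log2(FPKM + 1), 2158 under the stricter thresholds, and 6177 in the libraries whose names end in 4. Of the 20 shares of the cathepsins, 19 moved by more than the spread between libraries when taken from counts in place of FPKM. Values near 0 that were not called changed sign. Ctsa (0.00) was at 0.031 on log2(FPKM + 0.1), 0.030 on log2(FPKM + 1), 0.006 with library size only, 0.014 with no filter, 0.000 with at least 10 counts per library, 0.007 without aged bleo 4 and aged bleo 5, and -0.057 to 0.034 with single libraries left out. The ranges with single libraries left out were -0.098 to 0.002 for Ctsz, -0.148 to 0.010 for Neu1, -0.025 to 0.058 for Glb1, -0.007 to 0.037 for M6pr, and -0.043 to 0.182 for Mitf. Glb1 was at -0.001 in DESeq2 and with RLE factors, M6pr at -0.035 without aged bleo 4 and aged bleo 5 and -0.006 without aged sham 4 and aged bleo 4, and Cst3 at 0.088 without aged bleo 4 and aged bleo 5. In the libraries whose names end in 4, Ctsa was at 0.108, Ctsz 0.063, Neu1 0.214, Glb1 -0.090, Igf2r -0.003, Gnptab -0.127, Tfeb 0.113, and Mitf -0.013. With single libraries left out, the difference in mean log2 CPM ranged from 0.805 to 1.338 for macrophage markers (unadjusted exact permutation p of at least 0.0571 in 7 of 9 cases), -0.236 to 0.556 for pan-leukocyte, -0.105 to 0.35 for dendritic cell, -0.705 to 0.294 for T and NK cell, and -0.021 to 0.468 for epithelial markers, and the difference in summed CPM was 1.994 for T and NK cell and -9.071 for epithelial markers. The causes were not tested.

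Same-numbered libraries of the groups deviated together with correlations of 0.092, 0.062, -0.13, and 0.326, so the replicate numbers are taken as names only, and 1 of 4 numbers had its best match in its own number. With the numbers as a block, in which aged bleo 5 has no partner, 3536 genes were called, and the log2 fold changes were 2.76 for Ctss, 2.17 for Ctsc, 0.78 for Ctsd, 0.79 for Ctsk, and -0.62 for Ctsl, all still called. Ctsa was then at 0.033, Ctsz at 0.000, and Neu1 at 0.009, and Cd63 (0.52) and H2-DMb1 (1.00) were not called.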
